A study of Mus musculus with 12 samples.

Results

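The tetraspanins are small membrane proteins that gather integrins, proteases and signalling receptors into shared patches of the cell surface. Several are carried on endosomes and on the vesicles that cells release, and some are known mainly from 1 kind of cell, such as leukocytes, urothelium or photoreceptors. The family was looked at here because Tspan1, a member found mostly in epithelia, was higher in Rarb KO than in WT tumour epithelium, and the question was whether other members had like values. The members were the 31 mouse genes of the family, found by the RefSeq accession of their array probes, out of 20660 genes that the array names. All 31 were on the array, with 42 probes. Of these, 26 genes (34 probes) passed the filter on dim probes, which asks for a clear sample signal over background on 3 or more of the 12 arrays. The family was chosen by the Tspan1 values in KO and WT epithelium, so those of every member in that contrast are given as a description with no test.

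The samples were mammary tumours of FVB mice that carry MMTV-Wnt1, in which the MMTV promoter drives Wnt1 in mammary epithelium, and each was separated into epithelium and stroma by laser capture microdissection. KO tumours were Rarb -/- (Rarb encodes retinoic acid receptor beta, which regulates genes in response to retinoids), and the WT controls were Rarb +/+ and carried the same transgene. The groups were epithelium and stroma of KO tumours and of WT tumours, with 3 arrays each from 6 tumours (KO replicates 1, 3 and 4 and WT replicates 1, 2 and 3) that gave both compartments. Ages were not given in the sources used here, nor whether each tumour came from its own mouse, and the p-values cover only the variation among these samples, which may be technical. Every array set tumour RNA (Cy3) against a universal mouse reference RNA (Cy5), and values below are log2 ratios of sample over reference. Ratios of different probes are not levels that can be ranked against each other.

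The stromal samples differed in what they held. Between 36% and 46.3% of probes on an array had a sample signal well above background. The mean log2 ratio of 11 luminal epithelial markers was 2.53 to 2.99 on the 6 epithelial arrays, 2.06 to 2.81 in WT stroma and 0.45 to 1.29 in KO stroma. So in the samples labelled WT stroma the mean of luminal markers was close to that of the epithelium. By marker, WT stroma minus WT epithelium ran from -1.59 (Esrp1) to 0.88 (Krt8), with 3 of 11 positive and none called. Among luminal markers, Epcam had no signal well above background in KO stroma, and Cldn4 had none in WT epithelium. Cldn4 (log2 difference -0.04) and Esrp1 (0.56) did not differ clearly between KO stroma and KO epithelium. The mean of 11 fibroblast markers was 2.85 to 3.18 in KO stroma and 0.17 to 1.63 in WT stroma. Across genes WT stroma correlated with WT epithelium at a mean r of 0.807 and KO stroma with KO epithelium at 0.568, a description over genes, which are not replicates. WT stroma replicate 2 stood apart, with a mean of 4.62 over 9 lymphocyte markers against -1.04 to 0.95 on the other 11 arrays. In such bulk samples fewer cells of a type and less RNA per cell cannot be told apart. Rarb itself gave log2 ratios of -1.13, 1.36 and 0.50 in KO and -0.76, 0.85 and 0.77 in WT epithelium, and of 1.83, 2.09 and 0.57 in KO and -0.01, -0.29 and 1.37 in WT stroma, with overlapping groups. It is not known here whether that probe lies in the deleted part, so it checks nothing about the labels. Epithelium and stroma arrays lay on separate slides, and KO and WT arrays in separate rows of each slide, so neither difference can be told apart from position.

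Promoters are shown for Tspan1, which led to the family, and for Tspan8, Cd63 and Rom1, which differed between KO and WT stroma and have 1 RefSeq start each. The letters are from RefSeq on GRCm38.p6 and run from 250 bases before to 50 bases after the gene's start, on the gene's own strand. Capitals mark the retinoid receptor hexamer AGGTCA or GGTTCA, which nuclear receptors of this family bind in pairs, and the GC box GGGCGG, each on either strand.
Tspan1 (chr4:116167549-116167848, minus strand): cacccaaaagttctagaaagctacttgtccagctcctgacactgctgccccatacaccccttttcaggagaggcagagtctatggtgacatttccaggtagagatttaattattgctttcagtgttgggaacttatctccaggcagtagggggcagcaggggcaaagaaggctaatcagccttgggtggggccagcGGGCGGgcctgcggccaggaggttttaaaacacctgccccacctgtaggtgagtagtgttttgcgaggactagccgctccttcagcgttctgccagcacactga
Tspan8 (chr10:115817034-115817333, plus strand): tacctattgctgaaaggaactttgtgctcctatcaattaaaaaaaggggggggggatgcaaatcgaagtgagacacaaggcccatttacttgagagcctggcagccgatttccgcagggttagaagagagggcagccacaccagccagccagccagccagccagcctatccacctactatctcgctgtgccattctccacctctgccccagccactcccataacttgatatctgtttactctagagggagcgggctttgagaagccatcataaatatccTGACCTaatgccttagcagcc
Cd63 (chr10:128909095-128909394, plus strand): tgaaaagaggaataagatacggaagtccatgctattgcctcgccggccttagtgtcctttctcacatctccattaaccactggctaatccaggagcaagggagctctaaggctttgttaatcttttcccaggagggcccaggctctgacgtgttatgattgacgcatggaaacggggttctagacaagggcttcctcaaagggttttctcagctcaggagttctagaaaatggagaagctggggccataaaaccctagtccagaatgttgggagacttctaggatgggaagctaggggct
Rom1 (chr19:8929307-8929606, minus strand): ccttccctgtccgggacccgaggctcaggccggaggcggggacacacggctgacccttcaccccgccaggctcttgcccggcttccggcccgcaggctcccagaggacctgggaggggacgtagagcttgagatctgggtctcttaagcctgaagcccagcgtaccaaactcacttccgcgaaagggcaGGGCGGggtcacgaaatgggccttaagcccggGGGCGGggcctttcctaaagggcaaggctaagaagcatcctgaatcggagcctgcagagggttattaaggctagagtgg
In these windows Tspan1 had 1 GC box and Rom1 had 2, Tspan8 had 1 retinoid hexamer (as TGACCT, the other strand), and Cd63 had neither. Of the 31 members 29 had a promoter entry, 39 entries in all. The hexamer AGGTCA was in 4 of the 39 entries, from 3 members (Cd151, Tspan7 and Tspan8), and in 16.3% of 32851 RefSeq promoters of the same length. GGTTCA was in 3 of the 39 entries, from Cd82, Tspan12 and Tspan13, against 10.4% of all promoters. No member had these hexamers as a direct repeat with a spacer of 1, 2 or 5 bases, which count the same hexamers again and were found in 0.055%, 0.177% and 0.018% of all promoters. GGGCGG was in 17 of the 39 entries, from 15 members, and in 35.7% of all. A match is a run of letters in this window and not a site, and windows without one say nothing about the receptor.

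In epithelium Tspan1 and, with a smaller difference, Tspan18 had the highest values in KO over WT, Tspan15 and Tspan8 had the lowest, and most other members lay within 0.5 of 0. Tspan1 read 3.13, 3.58 and 3.97 on the KO epithelium arrays and 0.88, 0.78 and 0.37 on the WT epithelium arrays. All KO values lay above all WT values, and the difference was 2.88 (SE 0.31), or 7.37-fold. It was larger with Agilent's processed signals, at 4.35, and in the deposited table, at 3.80. The difference lay in the sample channel, where the mean of log2 Cy3 was 9.71 in KO and 7.11 in WT epithelium, against 6.15 and 6.43 for the reference channel. Over all genes 0.00749% were called in this contrast, from which nothing is read here, since it chose the family.

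Among the 25 other measured members 13 were positive and 12 negative in KO against WT epithelium, from -1.21 to 1.28, with a median of 0.02 against 0.03 over all genes. Of these 20 (80%) lay within 0.5 of 0, as did 80.6% of all genes. Tspan18 came nearest to Tspan1, with 2.48, 3.48 and 3.39 in KO and 1.64, 2.19 and 1.70 in WT epithelium, a difference of 1.28 (SE 0.29). Its KO and WT arrays did not overlap. A second Tspan18 probe differed by 0.02, with overlapping groups (0.42 to 1.54 in KO and 0.63 to 1.5 in WT), so the higher KO value rests on 1 probe. Tspan15, one of the members that carry the protease Adam10 to the cell surface, read 1.24, 0.14 and 0.51 in KO and 2.83, 1.15 and 1.54 in WT epithelium, a difference of -1.21 (SE 0.59) with overlapping arrays, and of -0.72 without WT epithelium replicate 1. Tspan8, an epithelial member known from tumour vesicles, read -0.38, 0.74 and -1.34 in KO and 1.66, 0.96 and -0.20 in WT, a difference of -1.13 (SE 0.59), again with overlap, and of -0.63 without KO epithelium replicate 4 and -0.70 without WT epithelium replicate 1. Groups without overlap were seen for 3 members higher in KO (Tspan1, Tspan18 and Rom1, at 0.47 with SE 0.17). Lower in that way was 1 member (Tspan11, at -0.23 and not well above background on any epithelial array). Of all genes 9.56% were higher and 4.49% lower in that way. Tspan1 is in the count because its values here chose the family. Only Tspan18 and Rom1, among the 25 other members, can be set beside the share of higher genes.

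In stroma Tspan1 did not pass the test. It read 0.07, 1.32 and 0.88 in KO and 0.37, 0.08 and 0.27 in WT stroma, above background on 2 of 3 arrays in each group. The groups overlapped, and the difference of 0.52 (SE 0.31) did not pass (limma adjusted p = 0.392). Within the KO tumours the Tspan1 ratio was lower in stroma than in epithelium by log2 differences of -3.06, -2.27 and -3.08, and within the WT tumours by -0.51, -0.70 and -0.10. These within-tumour values are a description, since the epithelium chose the gene.

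**Figure D1:**
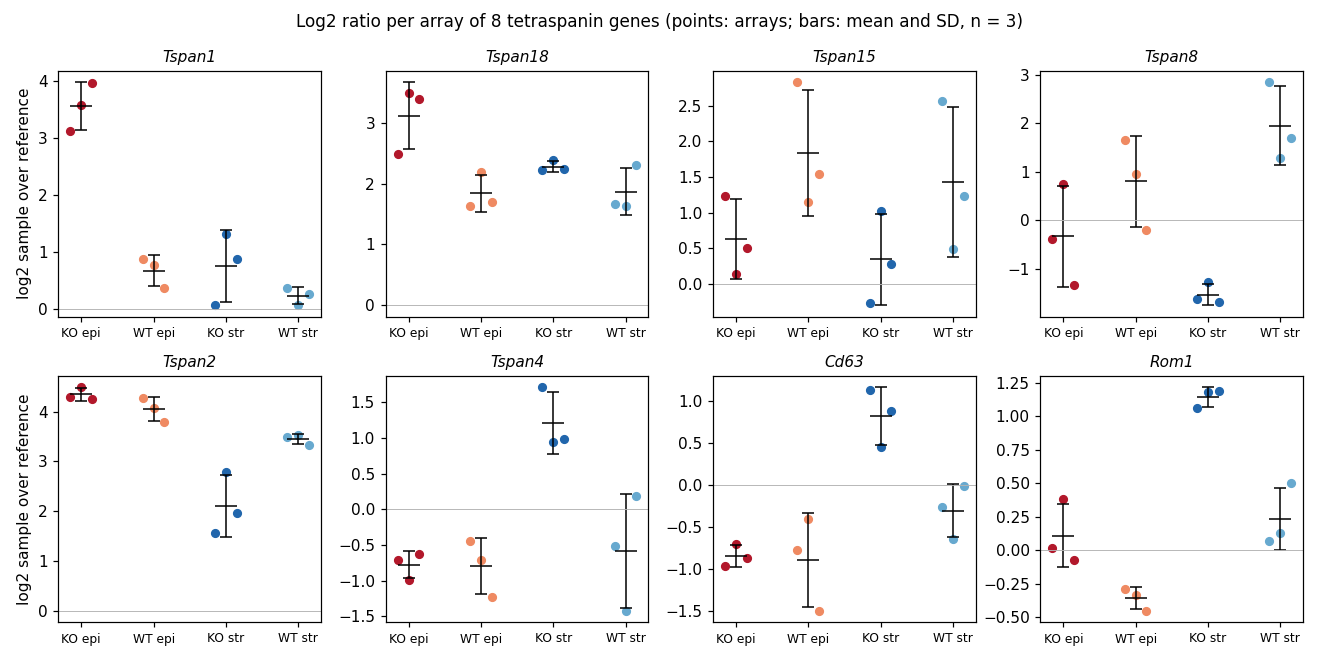
Log2 ratio of sample over reference (vertical axis) on each of the 12 arrays for 8 members, by group (epi, epithelium; str, stroma), with a scale of its own for each panel. Points are arrays and bars are the mean and SD (n = 3). Tspan1 stands at 3.13 to 3.97 in KO epithelium and at most at 1.32 on other arrays, while Tspan8 and Tspan2 are low and Tspan4, Cd63 and Rom1 high in KO stroma.

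KO against WT stroma, a contrast that chose no member, gave 5 called members of 26 (19.2%), with 6.45% of all genes called (limma, adjusted p under 0.05 over 13350 genes). Tspan8 and Tspan2 fell and Tspan4, Cd63 and Rom1 rose. That is 2 members lower, where 2.93% of all genes were lower, and 3 higher, where 3.52% were higher. An unadjusted p under 0.05 was seen for 10 of the 26 and for 21.5% of all genes. The 10 include Tspan11, which passed the filter through KO stroma alone, where it is high. Without Tspan11, 9 of 25 had an unadjusted p under 0.05 and 5 of 25 were called (20%). The median over members without Tspan1 was 0.32, against -0.01 over all genes. With 1 array left out at a time, 2, 4 and 3 members were called without KO stroma replicates 1, 3 and 4, and 0, 1 and 7 without WT stroma replicates 1, 2 and 3. When the fit used just the 6 stromal arrays, Tspan8 was the 1 member called. With tumour as a random block 4 were called, and Cd63 was lost. These 5 differences run beside the marker lists. In KO stroma 5 of 11 luminal markers fell (median -1.25). There 3 of 11 fibroblast (median 2.24) and 3 of 11 macrophage markers (median 1.19) rose. None of 8 basal (median -1.36), 9 lymphocyte (median -1.28) or 9 endothelial markers (median 0.99) was called. Differences were positive for 2 of 11 luminal, 11 of 11 fibroblast and 9 of 11 macrophage markers. They were positive for 1 of 8 basal, 0 of 9 lymphocyte and 8 of 9 endothelial markers. The part of the markers in the tetraspanin values was not tested.

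The members that fell were Tspan8, known from epithelia, and Tspan2. Tspan8 read -1.63, -1.28 and -1.69 in KO stroma and 2.85, 1.28 and 1.70 in WT stroma. The arrays were far apart, with every KO value below every WT value, and the fall was 11.1-fold (log2 difference -3.47, SE 0.59, adjusted p = 0.0124). Its probe was well above background on 1 of 3 KO stroma arrays, so the KO level is close to the floor of the measurement. The Tspan8 call held in 5 of 6 fits that left out an array and ended without WT stroma replicate 1 (adjusted p up to 0.0535), with differences of -4.92 to -3.02 over all settings. In the KO tumours Tspan8 was lower in stroma than in epithelium (-1.25, -2.02 and -0.35) and in the WT tumours higher (1.18, 0.32 and 1.90). The difference between the KO effects in the compartments was -2.34 (SE 0.55) and did not pass (adjusted p = 0.119). Tspan2, described in oligodendrocytes, read 1.57, 2.79 and 1.96 in KO stroma and 3.49, 3.52 and 3.33 in WT stroma, a fall of 2.53-fold (log2 difference -1.34, SE 0.27, adjusted p = 0.0209). The WT arrays lay within a narrow range above all KO arrays. A second, dimmer Tspan2 probe gave -0.56 (adjusted p = 0.186 where each probe was tested), and was above background on no KO stroma array. The Tspan2 call ended without KO stroma replicates 1 or 4 or WT stroma replicates 1 or 2 (adjusted p up to 0.0817 over the settings).

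The members that rose are known from migrasomes, endosomes and photoreceptor discs. Tspan4, known for its part in forming migrasomes on the trailing fibres of moving cells, read 1.71, 0.94 and 0.98 in KO stroma and -0.52, -1.42 and 0.18 in WT stroma. All KO arrays lay above all WT arrays, and the rise was 3.48-fold (log2 difference 1.80, SE 0.38, adjusted p = 0.0237, up to 0.0833 over the settings). It ended without KO stroma replicate 1 or WT stroma replicates 1 or 2. Cd63, a marker of late endosomes, lysosomes and released vesicles, read 1.13, 0.45 and 0.88 in KO stroma and -0.26, -0.64 and -0.01 in WT stroma, a rise of 2.18-fold (log2 difference 1.13, SE 0.29, adjusted p = 0.0457). It lies close to the threshold, and of the 6 fits with an array left out it passed only in that without WT stroma replicate 3 (adjusted p 0.0394 to 0.145 over the settings). Rom1, which with Prph2 shapes the rims of photoreceptor discs, read 1.06, 1.18 and 1.19 in KO stroma and 0.07, 0.13 and 0.50 in WT stroma. The KO arrays were close together, and the rise was 1.88-fold (log2 difference 0.91, SE 0.17, adjusted p = 0.0173). This call ended without WT stroma replicates 1 or 2 (adjusted p up to 0.0756). Prph2 gave no signal well above background on the 12 arrays.

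**Figure D2:**
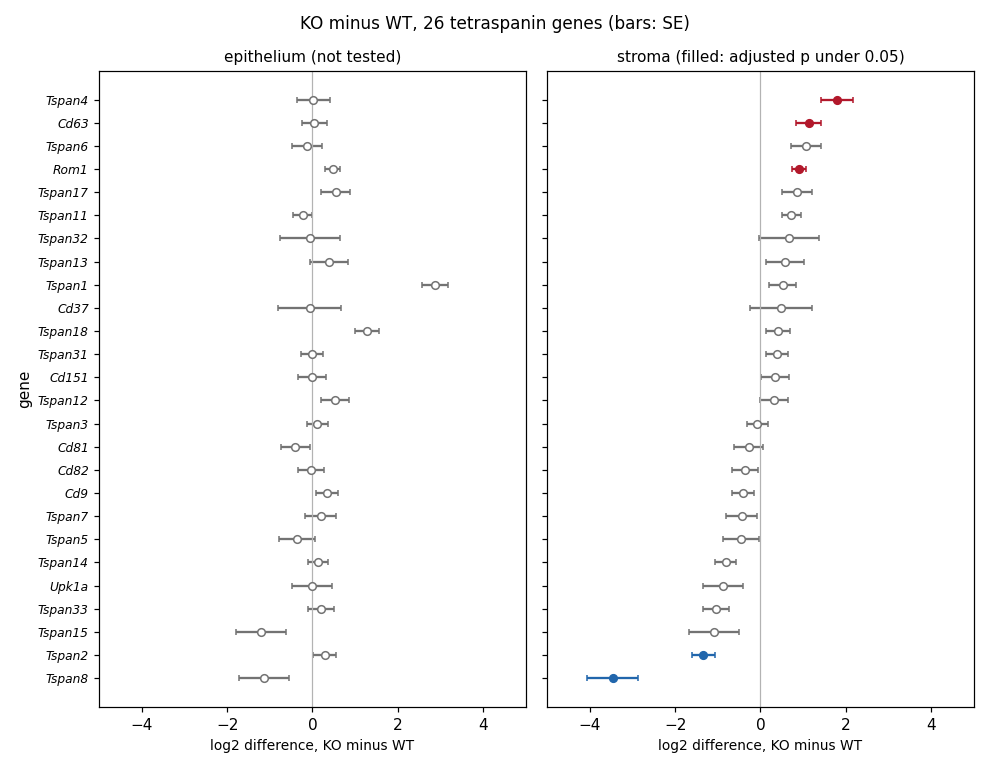
Log2 difference of KO minus WT (horizontal axis) for the 26 measured members in epithelium (left, not tested) and stroma (right), ordered by stroma. Points are limma estimates and bars are SE, and filled points passed the test. Tspan1 stands alone at 2.88 in epithelium, and Tspan8 lies lowest in stroma at -3.47.

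The other 21 members did not pass in KO against WT stroma. Nearest to the threshold were the Adam10 partners Tspan14 (log2 difference -0.82, adjusted p = 0.0714) and Tspan33 (-1.04, adjusted p = 0.0721), then Tspan6 (1.06, adjusted p = 0.105). Groups without overlap were seen for 6 members higher (Tspan4, Tspan6, Tspan11, Tspan17, Cd63 and Rom1) and 4 lower (Tspan2, Tspan8, Tspan14 and Tspan33). Of all genes 13.2% were higher and 13.1% lower in that way. Without Tspan11 the members higher in that way were Tspan4, Tspan6, Tspan17, Cd63 and Rom1, of 25. Tspan11 was above background on the 3 KO stroma arrays and on no other, so it passed the filter through KO stroma alone, the group where it is high, and no test of it is read here. Its KO stroma signal was at least 1.59-fold higher than in WT stroma, from the sample channel and with dim arrays at their floor. Several further members had small differences, with adjusted p from 0.458 to 0.911. These were -0.44 for Tspan7, a neuronal member, -0.07 for Tspan3, 0.32 for Tspan12, 0.38 for Tspan31, 0.41 for Tspan18 and 0.58 for Tspan13. The leukocyte members Tspan32 and Cd37 had 0.67 (adjusted p = 0.642) and 0.49 (adjusted p = 0.754), and the urothelial member Upk1a -0.88 (adjusted p = 0.307). Tspan9 had signal above background on 2 of 12 arrays and was left out by the filter, as were Tspan10, Cd53, Upk1b and Prph2 with none.

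The family has 6 Adam10 partners, and no test of them passed in KO against WT stroma. Tspan10 was on no array above background. Of the 5 measured, Tspan14, Tspan33, Tspan15 (-1.09, adjusted p = 0.324) and Tspan5 (-0.45, adjusted p = 0.593) had negative differences and Tspan17 (0.86, adjusted p = 0.178) a positive one, and none passed. Tspan33, described in activated B cells, read 0.69, 0.75 and 0.78 in KO stroma and 2.18, 1.46 and 1.69 in WT stroma. Tspan14 read 1, 1.03 and 0.84 in KO stroma and 2.30, 1.61 and 1.41 in WT stroma. In both genes every KO stroma array lay below every WT array. The second Tspan17 probe gave 0.10 in place of 0.86. Adam10 itself differed by 0.38 (adjusted p = 0.258).

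The broadly expressed members were mostly within small differences, and their probes did not always say the same. Cd9, known from sperm and egg fusion, had -0.41 (adjusted p = 0.415), and Cd81, found on many cell types, -0.28 (adjusted p = 0.693). Cd151, which binds laminin-binding integrins, had 0.34 (adjusted p = 0.62) and -0.90 with a second probe (adjusted p = 0.33 by probe). For Cd82, described as a metastasis suppressor, the brightest probe gave 0.52, -0.40 and 0.56 in KO and 0.97, 0.19 and 0.59 in WT stroma, a difference of -0.36 (adjusted p = 0.564). The second probe read 0.64, -0.20 and 0.58 in KO and 3.88, 1.81 and 1.79 in WT stroma, a difference of -2.15 (SE 0.91, adjusted p = 0.207 by probe). A further probe read 0.19, -0.22 and -0.21 in KO and 1.54, 0.69 and 1.24 in WT stroma, a difference of -1.24 (SE 0.30). With each of 16347 kept probes tested, which called 5.53% of them, that last Cd82 probe passed (adjusted p = 0.0406). KO and WT arrays overlapped for the first Cd82 probe and not for the other two, so the answer for Cd82 depends on the probe.

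Stroma against epithelium asked, within each tumour, which compartment held more of a transcript. In the KO tumours 10 of 25 tested members were called (40%), 6 higher and 4 lower in stroma, with 20.0% of all genes called, 10.2% higher and 9.87% lower. Here limma took each tumour as a block. The median of the 25 was 0.17, against -0.03 over all genes, and 15 had an unadjusted p under 0.05, as did 34.9% of all genes. The 10 include Tspan11, which entered the test only through KO stroma, where it is high, and without it 9 of 24 were called (37.5%), 5 higher and 4 lower. Of these 24, 14 had an unadjusted p under 0.05. With tumours KO 1, KO 3 and KO 4 left out in turn, 5, 6 and 2 members were called. These include Upk1a without KO 1 and Tspan7 without KO 3, which were not among the 10. Of the 10, Tspan2 and Tspan32 held in each of these fits and Tspan33 in all but that without KO 4, while Tspan4, Tspan11, Tspan14 and Cd9 held in none, Cd37 held only without KO 1, and Cd63 and Rom1 only without KO 3. In the same comparison 9 of 11 luminal markers were lower and 11 of 11 fibroblast, 8 of 11 macrophage and 5 of 9 endothelial markers higher in stroma. Of 8 basal markers 1 was lower, and 0 of 9 lymphocyte markers were called. The part of the markers in the members' values was not tested.

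Among tested members Cd37 and Tspan32, both known from leukocytes, rose the most in stroma, whereas Tspan33, also described in B cells, fell. Cd37, a B cell member, read -1.35, -1.98 and -2.45 in KO epithelium and 0.89, 0.92 and 0.24 in KO stroma, a rise of 6.11-fold (log2 difference 2.61, SE 0.45, adjusted p = 0.0116, up to 0.0602 over the settings). Tspan32, a member of blood-forming cells, read -2.59, -2.88 and -2.67 in KO epithelium and 0.34, 0.31 and 0.12 in KO stroma, a rise of 7.83-fold (log2 difference 2.97, SE 0.47, adjusted p = 0.00864, up to 0.0493). In both genes the compartments were far apart in every KO tumour. A second Tspan32 probe, above background on all 12 arrays, gave 0.02 (adjusted p = 0.961 by probe), and a second, dim Cd37 probe 0.31 (adjusted p = 0.578 by probe), so the rises rest on 1 probe for each gene. In the WT tumours Cd37 was higher in stroma by 0.76, 3.4 and 2 in tumours 1, 2 and 3 and Tspan32 by 0.69, 3.4 and 2.64. These did not pass (2.05, adjusted p = 0.399, and 2.24, adjusted p = 0.393). The tumour with the largest WT value for both is that whose stroma array stood apart in lymphocyte markers, and its Cd37 and Tspan32 ratios, 2.22 and 1.5, were above those of every other array. In KO stroma the mean of 9 lymphocyte markers was -0.35 to 0.95, against -1.01 to -0.62 in KO epithelium, with none of 9 called. The mean of 11 macrophage markers was 2.40 to 2.82 in KO stroma and 0.22 to 0.87 in KO epithelium. Cd53, another leukocyte member, gave no signal well above background here.

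**Figure D3:**
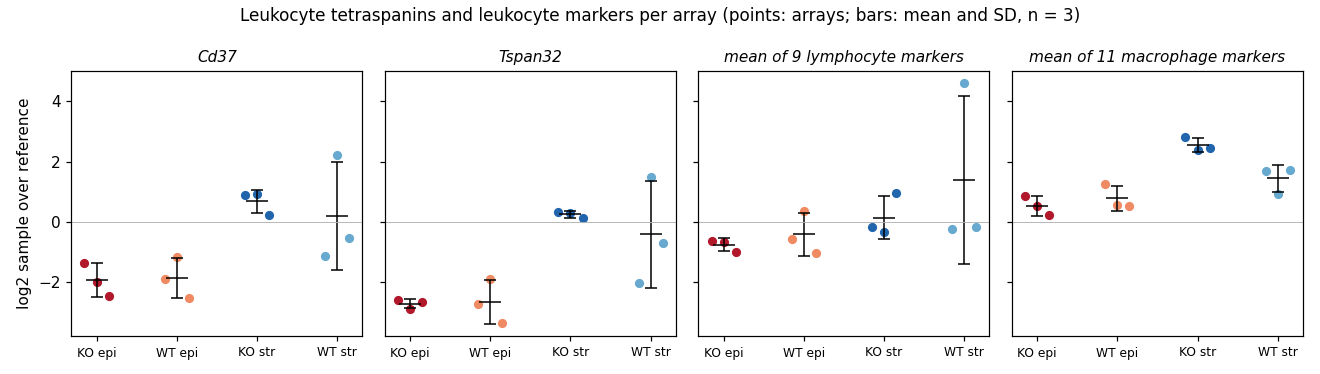
Log2 ratio of sample over reference (vertical axis) on each of the 12 arrays for Cd37 and Tspan32, beside the mean of 9 lymphocyte and of 11 macrophage markers, by group. Points are arrays and bars are the mean and SD (n = 3). One WT stroma array reaches 4.62 in lymphocyte markers and is the highest point for Cd37 and Tspan32, and the 3 KO stroma arrays lie above all epithelial arrays for both genes.

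The same members that differed between KO and WT stroma also differed between the compartments of the KO tumours, apart from Tspan8, and both comparisons use the KO stroma arrays. Tspan4 read -0.71, -0.99 and -0.63 in KO epithelium, below all KO stroma arrays (log2 difference 1.99, SE 0.39, adjusted p = 0.0171). Cd63 read -0.96, -0.70 and -0.87 there (1.67, SE 0.34, adjusted p = 0.0191), and Rom1 0.02, 0.38 and -0.07 (1.03, SE 0.19, adjusted p = 0.0135). Each rose in stroma in all 3 KO tumours. Among tested members Tspan2 fell the most, from 4.29, 4.49 and 4.25 in KO epithelium, by 4.71-fold (log2 difference -2.24, SE 0.22, adjusted p = 0.00249), while its second probe gave -0.80 (adjusted p = 0.0607 by probe). Tspan8 had -1.21 (adjusted p = 0.0731).

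A further 3 members were lower in KO stroma than in KO epithelium. Tspan33 read 2.23, 1.99 and 2.62 in KO epithelium, a fall to stroma of 2.90-fold (log2 difference -1.54, SE 0.25, adjusted p = 0.00998). Tspan14 read 2.15, 1.79 and 1.71 (-0.93, SE 0.21, adjusted p = 0.0241). Cd9 read 1.69, 1.65 and 1.47 in KO epithelium and 0.48, 0.78 and 0.46 in KO stroma (-1.03, SE 0.20, adjusted p = 0.0169). For all of them the compartments did not overlap. Tspan11 read -0.66, -0.64 and -0.61 in KO epithelium, where it was not above background, and 0.16, 0.19 and 0.56 in KO stroma, at least 1.64-fold higher, with no test read for the reason given above. Tspan12, which takes part in norrin signalling through Fzd4, lay next to the threshold at -0.90 (adjusted p = 0.0533). The uroplakin gene Upk1a, a urothelial member, had -0.95 (adjusted p = 0.095), and Upk1b was above background on no array.

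**Figure D4:**
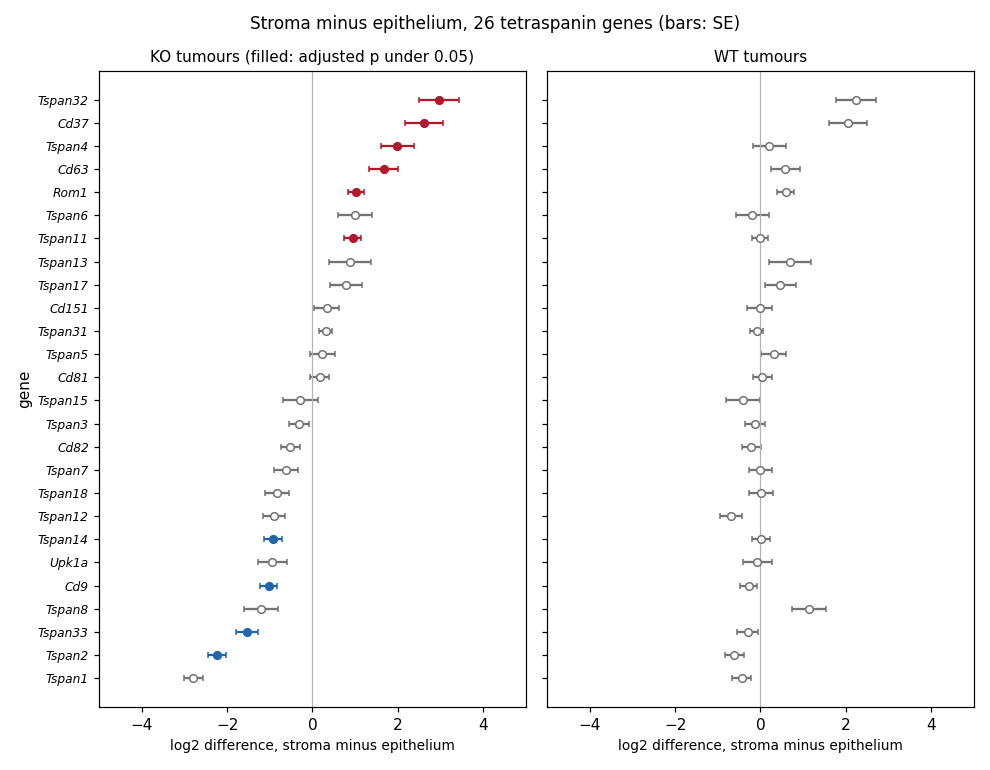
Log2 difference of stroma minus epithelium (horizontal axis) for the 26 measured members within the 3 KO tumours (left) and the 3 WT tumours (right), ordered by the KO tumours. Points are limma estimates with tumour as a block, bars are SE, and filled points passed the test. Tspan1 was not tested, and no test of Tspan11 is read, though its point is filled in the KO tumours. Values run from -2.80 to 2.97 in KO and from -0.70 to 2.24 in WT tumours.

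In the WT tumours 0 of 25 members passed for stroma against epithelium, 6 had an unadjusted p under 0.05, and the fit without the tumour block also called 0. Of all genes 1 passed (0.00749%), Serpinb1a, named here after its value was seen, and 8.84% had an unadjusted p under 0.05. The median of the members was 0.00, against 0.02 over all genes. Tspan4 had differences of -0.07, -0.71 and 1.41 in the WT tumours and 2.42, 1.93 and 1.62 in the KO tumours. Cd9 had 0.17, -0.31 and -0.68 in the WT and -1.21, -0.86 and -1.01 in the KO tumours. Tspan2 was lower in stroma in every WT tumour too (-0.79, -0.56 and -0.48), by less than in any KO tumour (-2.71, -1.70 and -2.29). The test of whether the KO effect differed between stroma and epithelium called 0 of 25 members and 0% of all genes, with 7 members and 18.1% of all genes at an unadjusted p under 0.05. The 7 include Tspan11, and without that gene 6 of 24 members were under 0.05. Without the tumour block this test called 0 members and 50 genes. So none of these members was shown to differ more in 1 compartment than in the other. The smallest adjusted p among members was 0.0875, for Tspan2 (-1.63, SE 0.31).

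Of 38 genes of known tetraspanin partners 32 were measured. In KO against WT stroma 2 rose and 1 fell, where 6.45% of all genes were called, with a median of 0.04 against -0.01 over all genes. Itga5, the fibronectin receptor subunit, rose by a log2 difference of 1.30 (SE 0.19, adjusted p = 0.0069), and Timp1, a protease inhibitor that binds Cd63, by 2.94 (SE 0.63, adjusted p = 0.0241). Ndp, which encodes norrin, fell (-1.62, SE 0.41, adjusted p = 0.044). In KO stroma against KO epithelium 4 rose and 4 fell, where 20.0% of all genes were called, with a median of 0.06 against -0.03 over all genes. Itga5 (1.5, adjusted p = 0.00672), Timp1 (4.39, adjusted p = 0.00778) and the leukocyte integrin gene Itgb7 (4.25, adjusted p = 0.0278) rose. Itga4, above background on no epithelial array, was at least 1.56-fold higher. It is 1 of the 4 counted as risen, but it passed the filter through stroma alone, where it is high. So no test of Itga4 is read here. Ndp (-2.08, adjusted p = 0.00537) and the tight junction gene Cldn7 (-1.51, adjusted p = 0.0202) fell. Upk2 and Epcam, not above background in KO stroma, were at least 2.29-fold (adjusted p = 0.00998) and 1.76-fold (adjusted p = 0.0154) lower. Epcam and Cldn7 are also among the luminal markers, so they are not separate from them. No partner passed in KO against WT epithelium or between the compartments of WT tumours, 0 of 32 in each, where 0.00749% of all genes were called in each. With so few genes called, nothing about the partners is read from these counts.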

How the data were processed

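Tumour RNA was in Cy3 and reference RNA in Cy5 on all 12 arrays, with no dye swap, per the labels. The scanner files, from Agilent Feature Extraction 10.7.3.1, give spot and background intensity as medians, Agilent's processed intensity and a log10 ratio of red (Cy5) to green (Cy3), per the file headers. The authors' deposited value table is in log2, with its making not given in the sources used here. Its 6 epithelial columns ran as reference over sample (r of -0.902 to -0.869 with the array's own ratio) with column medians in KO of 0.02, 0.01 and 0.01 and in WT of 0.00, -0.01 and -0.05. Its 6 stromal columns, with column medians in KO of 0.05, -0.01 and 0.00 and in WT of 0.00, 0.01 and 0.01, went with no array (r of -0.00569 to 0.000863). Their scale, centring and direction are unknown, and they were not used.

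Median signals were corrected with normexp (offset 50) and loess (controls at weight 0), and turned to sample over reference. Non-uniform spots were set missing. Of 55681 probes 27235 were named by accession through RefSeq (GRCm38.p6). A probe was kept with signal well above background on 3 or more arrays, and the brightest stood for its gene. The 13350 genes were tested with limma 3.58.1 (R 4.3.3) and Benjamini-Hochberg adjustment over all of them at 0.05, KO against WT in a fit of 4 group means (8 residual degrees of freedom), and compartments with tumour as a block (4). Titles of both compartments share genotype and number, which gives the pairing. Deviations of paired arrays from their group means correlated in the KO tumours at 0.09 (1), 0.29 (3) and 0.23 (4), and in the WT tumours at 0.45 (1), 0.29 (2) and 0.25 (3). The code was tested on simulated data.

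Members, lists and tests were chosen with earlier results of these data known. Array values are given for Tspan1, for members called in a tested comparison, for the 3 others with the largest difference in epithelium, and for a few more, chosen after their values were seen (Tspan33, Tspan14 and members whose probes disagree). Partners are named where called, Adam10 besides. A fold "at least" compares Cy3 signals after loess and Aquantile, a dim array taken at the lowest signal among probes above background or its own if higher, and is open to dye bias.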

Additional observations from a re-analysis of the deposited data

Results flagged for a closer look

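For Tspan11 every KO array lay above every WT array in stroma (log2 difference 0.72) and below it in epithelium (-0.23), a difference of the KO effect of 0.95 (SE 0.26) that did not pass (limma adjusted p = 0.151). The probe was well above background on the 3 KO stroma arrays and on no other, so the values in the other 3 groups lie at background and show no direction, and nothing is read from the test. Such groups without overlap in opposite directions were seen for 1 of 26 members and for 189 of 13350 genes.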

How the results depend on the processing

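The Tspan1 difference in epithelium, a description since it chose the family, ran from 2.68 to 4.35 over the 15 alternatives that measured it. It was 4.35 with Agilent's processed signals and 3.80 in the deposited table. Several alternatives leave a difference of group means as it is, and leaving out 1 array cannot reverse groups that do not overlap. So the kept direction supports nothing. The Tspan1 probe was left out where all 12 arrays had to be above background. The Tspan18 difference was 0.65 with the mean of its probes. For KO against WT stroma the 6 stromal arrays alone called 1 member and 294 genes in place of 861, and leaving out 1 array gave 0 to 7 members and 175 to 885 genes. Stroma against epithelium in KO tumours gave 2 to 6 members and 1075 to 1208 genes in place of 2676 when 1 array, and with it the pairing of its tumour, was left out. With the tumour as a random replicate block (correlation 0.22), 4 members and 825 genes were called in stroma, and without the replicate block 10 members were called between compartments in KO tumours, as with it. The block changed no other count of members. The count of genes whose KO effect differed between compartments was 0, and at most 157 with array weights. Testing every kept probe on its own was chosen after seeing the data, and through the probes that stand for genes it called the same 5 and 10 members, besides the Cd82 probe in stroma given above. No called member reversed. The 3 arrays per group limit every value. Signals near background limit Tspan8 in KO stroma, Tspan11 outside KO stroma, and Tspan1 in stroma, where 2 of 3 arrays in each group were above background.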
